A study of Macaca fascicularis with 36 samples.

Results

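The doses of the antibody Para09, 200 and 50 mg/kg, were compared over 24 of the 36 libraries of the series, 12 for each dose. The tissue was frontal cortex of 8 cynomolgus monkeys (Macaca fascicularis), animals 5501 to 5504 at the higher dose and 4501 to 4504 at the lower, chosen by the treatment number in their labels. Each animal gave 3 libraries, lettered A, B and C, whose meaning the labels do not state. Para09 is labelled an agonist antibody against human TREM2, so both groups received the antibody and by their labels differed in dose only. It was injected intrathecally, and the brain was taken 2 days later. The labels state neither how a dose per kg applies to that route nor the animals' ages. The 4 animals of the isotype control antibody anti-gD at 200 mg/kg are used below for background levels.

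TREM2 is a lipid-sensing receptor on the surface of microglia, the brain's own macrophages. Ligand or agonist binding signals through the adaptor TYROBP and the kinase SYK, and TREM2 is known for its part in microglial survival, lipid handling and the switch to an activated state. In bulk cortex RNA microglial transcripts are a small part of the total, and a larger number of such cells cannot be told apart from more RNA per cell. The files give genes by Ensembl-type identifiers without names, and 0 of the 28623 identifiers are in the reference table of 40596 genes. TREM2 itself, gene lists and cell type markers, including those of the labelled cortex, were therefore not examined here, and genes are described by identifier, exonic width and level.

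Libraries at 200 mg/kg held 15.7 to 24.9 M counts (M for mega, median 22.5 M) and those at 50 mg/kg 15.1 to 37.0 M (median 22.3 M). Summed per animal, the totals were 62.0 to 66.7 M and 64.0 to 80.3 M. The sample numbers in the titles fall into 2 separate runs, handled as a batch and called the first and the second run. Letter B of all animals belonged to the first run, as did letters A and C of animal 5501 at 200 mg/kg. That made 6 of 12 libraries at 200 mg/kg and 4 of 12 at 50 mg/kg. Library 5501B detected 15779 genes, and the other 23 libraries detected 17974 to 19677. Results were recomputed within the first run by letter B only, within the second run, which lacks 5501, and over both runs without 5501 or 5501B.

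One gene, ENSMFAG00000003587, rose from 50 to 200 mg/kg in the model that handled the runs as a batch. Its level, in counts per M total counts (CPM) of the animal sums, was 31.2 in animal 5501, 127 in 5502, 52.5 in 5503 and 40.4 in 5504 at 200 mg/kg. The lower dose had 16.9 in animal 4501, 20 in 4502, 11.3 in 4503 and 28.6 in 4504. The 4 animals at the higher dose all lay above the 4 at the lower one, but 5501 and 4504 nearly met, and 5502 stood more than 2 times as high as the next animal. With anti-gD the 4 animals had 11.0 to 14.5 CPM, below 3 of the 4 animals at 50 mg/kg. The gene has an exonic width of 2064 bases, and per length its mean deposited RPKM was 17.9 at 200 and 5.45 at 50 mg/kg.

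Within each letter the libraries of the doses did not overlap. The gene is described because it was called in these same libraries, so the separation of its animals and libraries adds no support. Of all 17360 genes tested, the animals did not overlap, with 200 mg/kg higher, for 1.31%. For the letter B libraries the share was 0.616%. At 200 mg/kg the 12 libraries ran from 24.8 to 148 CPM with a median of 43.4, and at 50 mg/kg from 7.99 to 31.1 CPM with a median of 18.1. All libraries at the higher dose other than 5501B and 5501C, 10 of 12, exceeded every library at the lower dose. In letter C the groups only just failed to overlap, since 5501C and 4504C both rounded to 24.8 CPM. The limma voom model of all 36 libraries, with fixed terms for run and letter and a random term for the animal, gave a log2 difference of 1.60 (SE 0.28) and an adjusted p of 0.0413. It was the only call among 15928 genes, 0.00628% of them. The model gave every gene the same within-animal correlation, 0.274. Where libraries of an animal agree more closely than that, SE and p come out too small. The correlation of this gene alone was not estimated. Its unadjusted p was 2.59e-06 in this model. In edgeR, with the animal as the replicate and no run term, it was 0.00094 (SE 0.40).

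That call was close to the threshold. It was lost in limma voom without animal 4501 (adjusted p 0.186), 4502 (0.114), 4503 (0.079) or 5503 (0.0746), and when the 24 Para09 libraries were fitted alone (0.11). It was kept without 5501, 5502, 5504, 4504 or library 5501B, and without animal 5502 the log2 difference was 1.15. In the edgeR quasi-likelihood test on counts summed per animal the log2 difference was 1.71 (SE 0.40, 95% interval 0.85 to 2.57), or 3.27-fold, with an adjusted p of 0.961, and without 5502 it was 1.10. Within the first run (letter B) it was 1.78. Within the second, which lacks 5501, the lowest animal at 200 mg/kg, it was 1.88, and without 5501 over both runs it was 1.93.

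**Figure D1:**
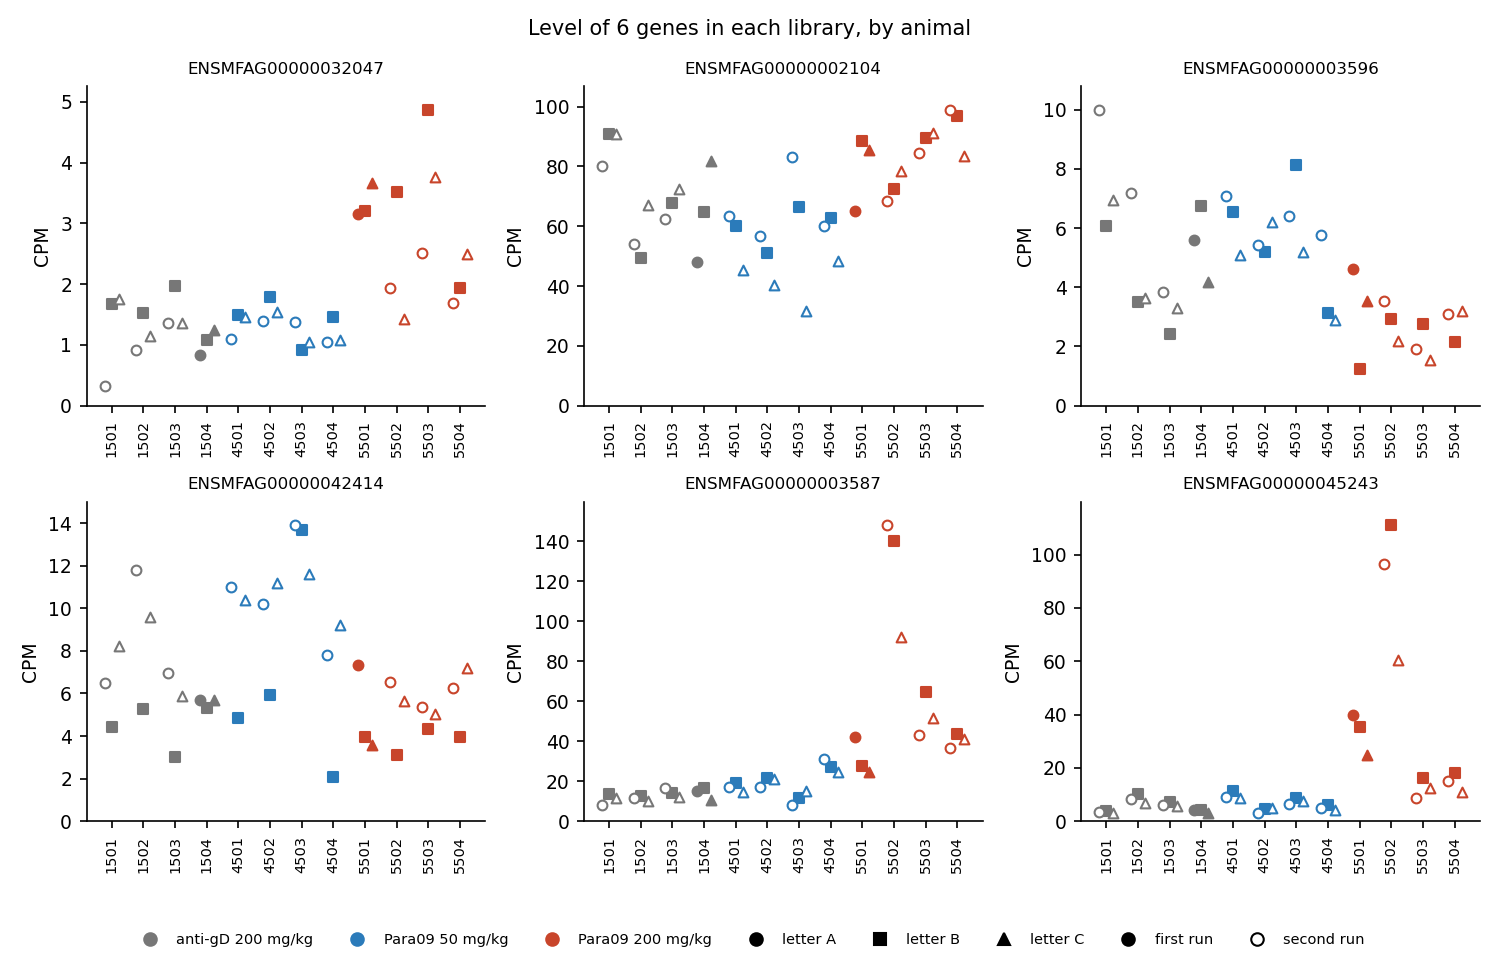
Level in CPM (vertical axes, from 0) of 6 genes in each of the 36 libraries, ordered by animal, with colour for the group, shape for the letter, and filled symbols for the first run of sample numbers. For ENSMFAG00000003587 and ENSMFAG00000045243 the 3 libraries of animal 5502 stand above all others, and ENSMFAG00000042414 is lower in filled than in open symbols for 3 of the 4 animals at 50 mg/kg. The filled symbols at 50 mg/kg are all letter B.

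A second gene, ENSMFAG00000045243, was the only call of DESeq2, and the reported edgeR and limma voom fits did not call it. It stood at 33.4 CPM in animal 5501, 88.1 in 5502, 12.2 in 5503 and 14.6 in 5504. The lower dose had 9.68 CPM in animal 4501, 4.25 in 4502, 7.27 in 4503 and 5.03 in 4504. The groups did not overlap, and the values at 200 mg/kg spread more than 7 times from lowest to highest. The anti-gD animals, at 3.47 to 8.19 CPM, lay within the range of the lower dose or just below it. Over libraries the range was 8.68 to 111 CPM (median 21.4) against 3.09 to 11.2 CPM (median 6.26), and 10 of 12 libraries at 200 mg/kg exceeded all 12 at 50 mg/kg.

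The log2 difference of ENSMFAG00000045243 was 2.50 (SE 0.57, 95% interval 1.25 to 3.74) in edgeR, a 5.65-fold higher level. Its adjusted p was 0.961 in edgeR, 0.0259 in DESeq2 and 0.0726 in the limma voom model, where the log2 difference was 2.05. The limma voom model did call it in 5 of 13 alternatives. These were run as the only covariate (adjusted p 0.0286), neither run nor letter (0.0133), and leaving out 5502 (0.03), 5503 (0.00681) or 5504 (0.0306). Over the other 8 its adjusted p reached 0.522, without 5501. Without animal 5502 the edgeR value was 1.60. Its exonic width is 1630 bases, and its mean RPKM was 13.4 at 200 and 2.39 at 50 mg/kg. ENSMFAG00000003587 and ENSMFAG00000045243 shared their highest animal, 5502. For the former 5501 was the lowest animal at 200 mg/kg, and for the latter it was the next highest. Both genes were singled out after their values were seen, so their lack of overlap between the doses adds no support.

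A further 4 genes are named by rule, the 2 with the smallest edgeR p in each direction among genes averaging at least 1 CPM over the 8 animals. None passed the edgeR test (adjusted p 0.961 for each), and their own p and size are biased by this choice. In all 4 the animals of the doses did not overlap, which a choice by small p favours, so this adds no support. Over all 17360 genes tested, 1.31% were arranged so with 200 mg/kg higher and 1.34% with it lower. The exact permutation test (two-sided) gives this arrangement a p of 0.0286, the least that 4 against 4 can give. None passed in the limma voom model either, where the adjusted p lay between 0.199 and 0.769.

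ENSMFAG00000032047, a low-level gene of 4010 exonic bases, had 3.34 CPM in animal 5501, 2.18 in 5502, 3.63 in 5503 and 2.04 in 5504. The 50 mg/kg animals had 1.34 (4501), 1.58 (4502), 1.15 (4503) and 1.16 CPM (4504). The anti-gD animals, at 1.02 to 1.58 CPM, covered nearly the same range as the lower dose. The edgeR log2 difference was 1.10 (SE 0.24, 95% interval 0.57 to 1.62). It was 1.24 within the first run and 0.86 within the second. Letter C overlapped between the doses because library 5502C, at 1.43 CPM, lay below 4501C and 4502C.

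ENSMFAG00000002104, of 6450 exonic bases, had 80.4 CPM in animal 5501, 74.7 in 5502, 88.9 in 5503 and 94.0 in 5504. The 50 mg/kg animals had 56.1 in 4501, 50.3 in 4502, 60.3 in 4503 and 57.8 in 4504. The anti-gD animals, at 56.9 to 87.2 CPM, spanned the gap between the doses and overlapped both. The edgeR log2 difference was 0.59 (SE 0.13, 95% interval 0.30 to 0.88). Its size differed by letter, with 0.25 in letter A alone and 1.01 in letter C alone. The C libraries had 78.4 to 91.3 CPM at 200 and 31.7 to 48.5 CPM at 50 mg/kg, without overlap, and the A libraries 65.2 to 99.0 and 56.8 to 83.3 CPM, with overlap.

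ENSMFAG00000003596, of 6013 exonic bases, was at 3.00 CPM in animal 5501, 2.93 in 5502, 2.04 in 5503 and 2.88 in 5504. In the lower dose group it was at 6.22 in 4501, 5.66 in 4502, 6.33 in 4503 and 4.32 in 4504. The anti-gD animals ranged from 3.15 to 7.70 CPM, above every animal at 200 mg/kg, and covered the whole range of the lower dose. The edgeR log2 difference was -1.05 (SE 0.25, 95% interval -1.60 to -0.51). It was -1.36 within the first run, -1.11 within the second and -0.93 without library 5501B. Letters A and B did not overlap between the doses. Letter C did, with 1.55 to 3.53 CPM at 200 and 2.89 to 6.21 CPM at 50 mg/kg. Of the 12 libraries at 200 mg/kg, 6 lay below every library at 50 mg/kg.

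ENSMFAG00000042414, of 980 exonic bases, was at 4.86 CPM in animal 5501, 5.47 in 5502, 5.02 in 5503 and 5.98 in 5504. The values at the lower dose were 8.83 in 4501, 9.27 in 4502, 13.0 in 4503 and 7.06 in 4504. The anti-gD animals, at 5.17 to 8.77 CPM, overlapped both doses. The edgeR log2 difference was -0.84 (SE 0.21, 95% interval -1.29 to -0.38), and -0.66 without animal 4503. This gene also differed between the runs, which at 50 mg/kg cannot be told apart from letter B against letters A and C. At 50 mg/kg its median was 5.40 CPM in the 4 first-run libraries and 10.7 CPM in the 8 second-run libraries, and with anti-gD 5.29 and 7.61 CPM. Animal 5501 has first-run libraries only, with 7.32 CPM in letter A, 3.95 in B and 3.58 in C. Within the first run the B libraries of the doses overlapped, with a log2 difference of -0.79 (unadjusted edgeR p 0.0883). Within the second run it was -0.82.

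Over all 17360 genes tested, edgeR called 0 (0%), and its smallest adjusted p was 0.961. Genes with an unadjusted p under 0.05 numbered 274 higher (1.58%) and 167 lower (0.962%) at 200 mg/kg. This balance turned within the second run, with 202 higher and 416 lower, and with the 8 Para09 animals fitted alone, with 291 higher and 316 lower. In the reported fit the sum, 441, lies below the 868 that evenly spread p-values would give. The limma voom model had 300 genes higher (1.88%) and 164 lower (1.03%) at that level, of 15928 tested. The lists shared 236 genes in the same direction, 53.5% of the edgeR list and 50.9% of the other.

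The differences themselves were small. The median log2 difference was 0.014, and 90% of genes lay between -0.53 and 0.40. Among the 14627 genes averaging at least 1 CPM, 23 were fitted at least 2-fold higher and 56 at least 2-fold lower at 200 mg/kg. A fitted log2 difference of 3 or more either way was seen for 2 genes higher and 4 lower. These 6 averaged under 1 CPM, and in each a single animal carried 53.4% to 96.8% of the counts of the higher group. No gene had counts in all 12 libraries of a dose and 0 in all 12 of the other.

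**Figure D2:**
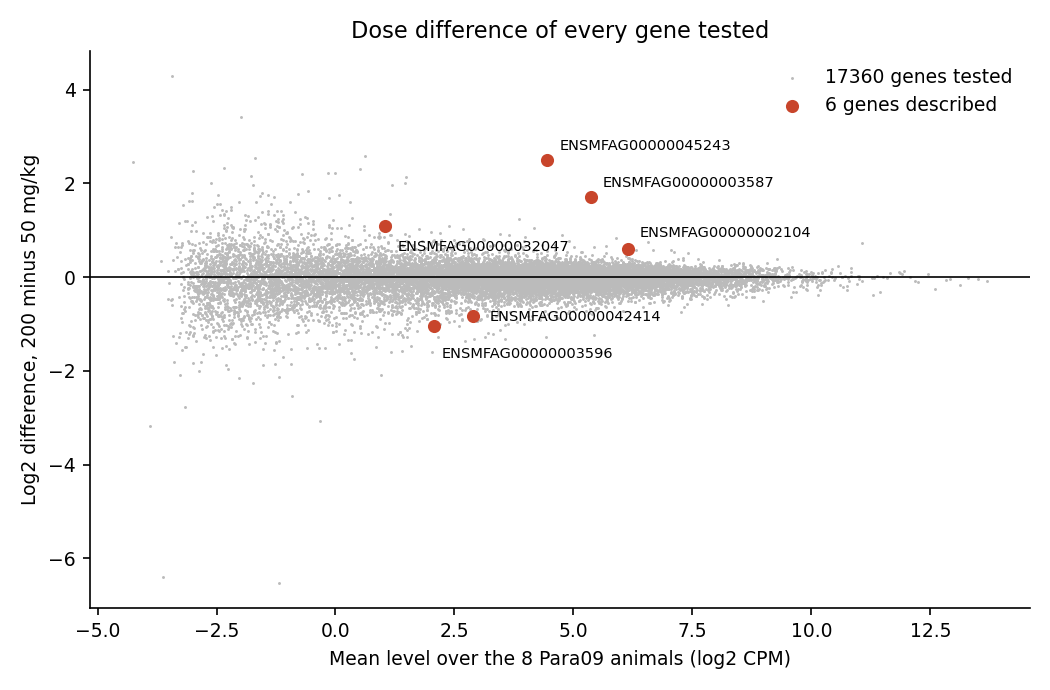
Log2 difference of 200 minus 50 mg/kg from the edgeR fit (vertical axis) against the mean level over the 8 Para09 animals in log2 CPM (horizontal axis), 1 grey point for each of the 17360 genes tested and red points for the 6 genes described. ENSMFAG00000045243 (2.50) and ENSMFAG00000003587 (1.71) stand apart from genes of similar level, and the widest scatter is among genes of low level.

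The precision of the edgeR fit, which has no run term, is shown by the 95% interval of each gene's dose difference. It does not limit what the adjusted p left uncalled. ENSMFAG00000003587 and ENSMFAG00000045243 were not called in this fit, with intervals of 1.8- to 5.95-fold and 2.38- to 13.4-fold higher. For 8948 genes (51.5%) the 95% interval of the dose difference lay within 1.5-fold either way, and for 13416 (77.3%) within 2-fold. For 16558 genes (95.4%) it lay within 4-fold. Precision rose with level. Of 2188 genes at 100 CPM or more, 96.5% had an interval within 2-fold, with a median half-width of 1.23-fold. Of 7858 genes between 10 and 100 CPM the share was 93.5%, and of 4581 between 1 and 10 CPM it was 73.7%. Of 2733 genes under 1 CPM it was 21.2%, with a median half-width of 2.02-fold. These intervals are for single genes and are not corrected for the number of genes.

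**Figure D3:**
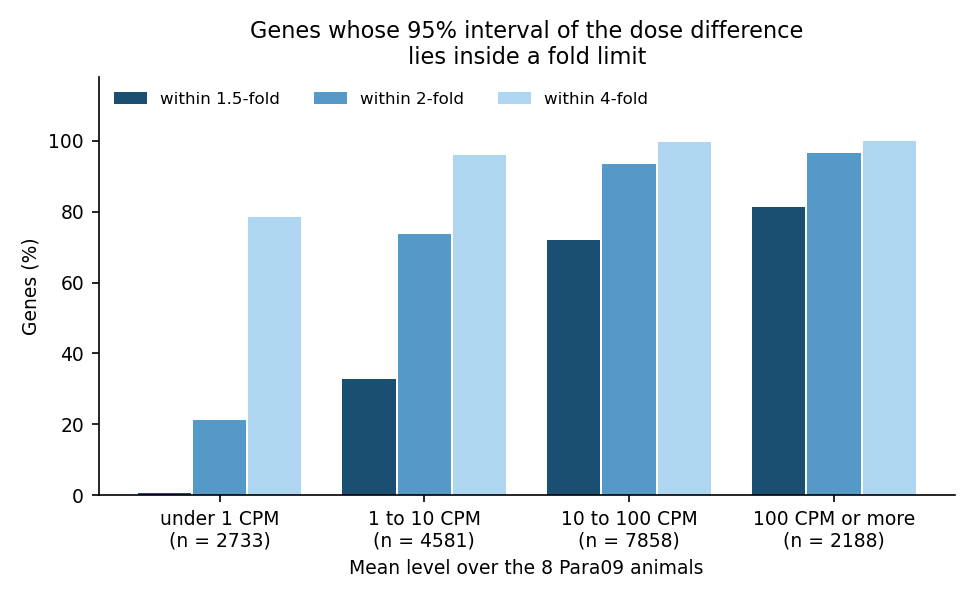
Share of genes in percent (vertical axis, from 0) whose 95% interval of the dose difference lies within 1.5-fold, 2-fold or 4-fold either way, by mean level over the 8 Para09 animals (horizontal axis). The share within 2-fold is 21.2% under 1 CPM and 96.5% at 100 CPM or more.

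The 100 most abundant genes took 21.8% of the counts at 200 mg/kg and 22.1% at 50 mg/kg. Their log2 differences ran from -0.39 to 0.74 with a median of -0.03. One of them was higher and 0 were lower at an unadjusted edgeR p under 0.05, and 94 had an interval within 2-fold.

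Animals of the doses did not overlap for 227 genes that were higher (1.31%) and 232 that were lower (1.34%) at 200 mg/kg, out of the 17360 tested. In the B libraries alone, all of the first run, the groups did not overlap for 107 genes higher (0.616%) and 123 lower (0.709%). Both arrangements, in the same direction, held for 42 genes. These B libraries are part of the animal sums, so the sets are not independent. Across the 14627 genes averaging at least 1 CPM, the dose differences of letters A and C correlated with r = 0.597, those of A and B with 0.384 and those of B and C with 0.435. These are descriptions across genes, and the letters share their animals. In letters A and C animal 5501 is of the first run and all other Para09 animals of the second, an imbalance that letter B lacks. Its part in these correlations was not tested. The 3 letters had the same direction for 7305 genes (49.9%), 3830 higher and 3475 lower.

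Dose accounted for little of the variation among the 24 libraries. Terms were entered in the order run, letter, dose and animal. Over 15582 genes run took 42.6% of the sum of squares of log2 CPM, letter 4.35% and dose 3.57%. Animals within a dose took 28.1% and libraries within an animal 21.4%. Apart from the animal with first-run libraries only, all first-run libraries were letter B and all second-run libraries letter A or C. Run was entered before letter, so variation shared by run and letter B was counted as run. The shares of run and letter therefore cannot tell run apart from letter B. Per degree of freedom dose took 3.57% and animals within a dose 4.68%. By distance over the 14627 genes, the nearest animal had the same dose for 4 of the 8 animals. In the B libraries alone the nearest library had the same dose for 0 of 8.

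**Figure D4:**
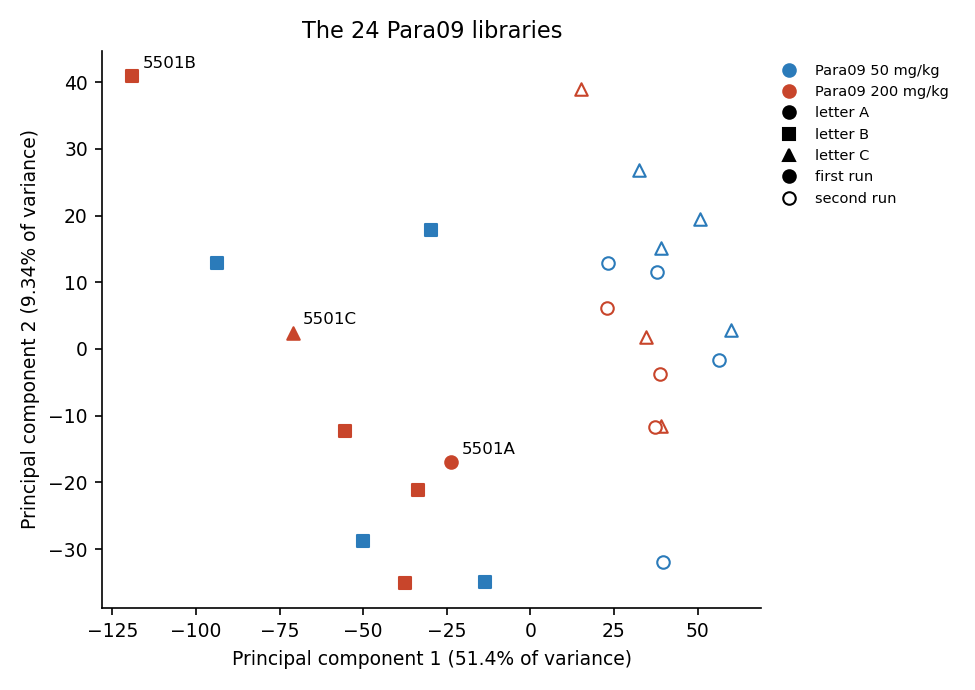
Scores of the 24 Para09 libraries on principal components 1 (horizontal, 51.4% of variance) and 2 (vertical, 9.34%), with colour for the dose, shape for the letter and filled symbols for the first run of sample numbers. First-run libraries score -13.7 or lower on component 1 and second-run libraries 15.3 or higher, with both doses on each side, and 5501B lies farthest out at -119.

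Animals at 200 mg/kg were spread more widely than those at 50 mg/kg, by a median SD of 0.214 against 0.186 in log2 CPM of the animal sums (n = 4 each). Without animal 5501 the value at 200 mg/kg was 0.123 (n = 3). In the B libraries, which share a run, it was 0.299 at 200 and 0.362 at 50 mg/kg (n = 4 each), and 0.207 without 5501B (n = 3). The order of the doses in spread therefore turned within the first run.

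The dose difference also moved with exonic width. Genes were divided by width into 4 groups of about equal number. In the narrowest (63 to 1418 bases) the median log2 difference was -0.033, and in the widest (4400 to 112593 bases) it was 0.061. At an unadjusted edgeR p under 0.05, 45 genes were higher and 62 lower in the narrowest group, and 105 higher and 25 lower in the widest. Within the first run 3282 genes of the narrowest group and 4201 of the widest were tested, against 4341 and 4339 in the reported fit. The first-run counts were 46 higher and 34 lower in the narrowest group, where the balance turned, and 22 and 10 in the widest. Within the second run they were 30 and 159 in the narrowest and 77 and 56 in the widest. Without animal 5501 they were 24 and 37 in the narrowest and 49 and 20 in the widest, and without library 5501B 34 and 61, and 97 and 30. Without animal 5501 the medians were -0.017 and 0.016, and without library 5501B alone -0.037 and 0.044. Within the first run they were -0.017 and -0.008, and within the second, which lacks 5501, -0.031 and 0.027. ENSMFAG00000002104 and ENSMFAG00000003596 are both in the widest group and differed in opposite directions. The part of RNA quality or library preparation in this trend was not tested.

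**Figure D5:**
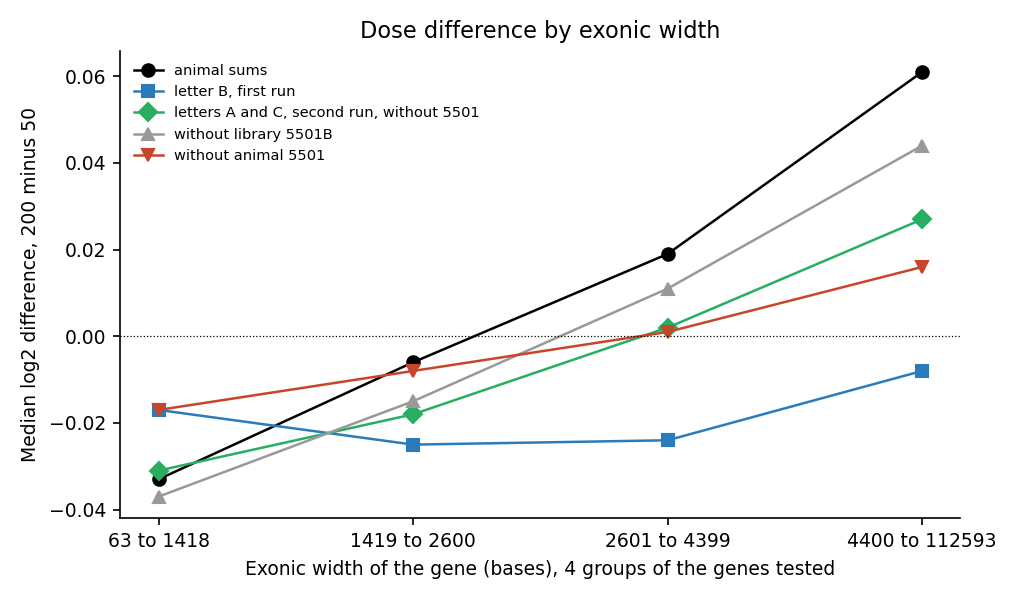
Median log2 difference of 200 minus 50 mg/kg (vertical axis) in 4 groups of genes by exonic width (horizontal axis), for the edgeR fit of all animal sums and for fits within each run, without library 5501B and without animal 5501. The rise from -0.033 to 0.061 over all animals is smaller without animal 5501 and is nearly flat in the B libraries.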

How the data were processed

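Bulk RNA of frontal cortex was measured in 36 libraries. The authors aligned reads with GSNAP, per the submitters' processing notes, and deposited for each library a whole-number count per gene over its exons, an exonic width and an RPKM, per the file headers. Build, annotation, strand and multi-mapping rules are not stated in the labels or files, so overlapping or near-identical genes may have exchanged counts. Counts as deposited entered every test, and the authors' RPKM was used only for levels per length.

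The 3 libraries of each animal were added together, and all 12 animals were fitted jointly with edgeR 4.0.16 in R 4.3.3 (TMM, filterByExpr, quasi-likelihood test). The run of sample numbers was handled as a batch in a limma 3.58.1 voom model of the 36 libraries. That model had letter as a further covariate and the animal as a random block. It used 1 within-animal correlation, 0.274, for every gene. Fits within each run were made as well. A gene counted as called when its p, adjusted over all genes tested (Benjamini-Hochberg), was under 0.05. DESeq2 1.42.0 was an alternative. Standard errors were the log2 difference divided by the root of F, log2 CPM used a prior count of 2, and single genes had an exact two-sided permutation test. Fits were checked on simulated data that held animal effects but no run or letter effect. That check therefore does not cover the handling of the runs. Named genes were the 2 higher and 2 lower with the smallest edgeR p averaging at least 1 CPM over the 8 Para09 animals, plus the single calls of limma voom and of DESeq2. The gene lists needed names and were not used. The groups, lists and rules were chosen with earlier results of these data known.

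Within animals, 24 library pairs had a chi-square of 9.80 to 146 per degree of freedom, where counting noise alone gives about 1, so each was kept as a separate library. Libraries held 15.1 to 37.0 M counts (M for mega), and the precision this gave is reported by level as intervals of the dose difference.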

Additional observations from a re-analysis of the deposited data

Results flagged for a closer look

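Of 26 groups of 4 values examined, 5 had a value far from the other 3. Chance gives about 1 in 20 groups if they are independent, and these were not. All flags but that of ENSMFAG00000003596 concern the same animal, 5501, and the genes examined were picked from these same animals. All 5 were at 200 mg/kg. Animal 5501 scored 77.5 on principal component 1 of the animal sums, and the next animal at 200 mg/kg scored -2.13. Its libraries are all of the first run of sample numbers. Each of its libraries also detected the fewest genes of its letter at 200 mg/kg, with 18535 in letter A (next 19178), 15779 in letter B (next 18073) and 18352 in letter C (next 19190). In letter B all 4 libraries belong to the first run, but in letters A and C those of the other animals belong to the second. The letter B libraries of the other Para09 animals, all first-run, detected 17974 to 18415 genes. Against that range 5501B was low, 5501A lay above it and 5501C within it. ENSMFAG00000003596 was lowest in animal 5503, at 2.04 CPM, with the next animal at 2.88 CPM.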

How the results depend on the processing

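On animal sums edgeR or limma called 0 genes in every alternative fit, and DESeq2 called 1. The 441 genes at an unadjusted p under 0.05 became 235 in the first run alone (letter B), 140 in letter A alone, 831 in letter C alone and 260 to 622 when single animals were left out, the lowest without 5501. The share of these genes that were higher was 62.1%, 32.7% in the second run alone and 47.9% with only the 8 Para09 animals. The library model called 1 gene, and 4 with run as the only covariate, 3 with neither run nor letter, 0 with the 24 Para09 libraries alone, 2 without 5501B and 0 to 6 when single animals were left out, the highest without 5502. Its 464 genes at an unadjusted p under 0.05 became 320 to 785 then, the highest without 4504. Repeating voom with the estimated correlation left the single call (adjusted p 0.0357). That alternative was chosen after seeing the data, as were the non-overlap and interval counts without 5501B and the interval counts without single animals. The 6 named genes had the same direction in the 20 alternatives on animal sums and the 13 of the library model. No paired analysis was possible because the doses were given to different animals and no label pairs them. The 4 animals per dose and the 2 runs limit these results. Genes of low level had wider intervals, and the part of depth was not tested. The count of genes with an interval within 2-fold rose from 13416 to 13882 without animal 5501 and to 13834 without library 5501B.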
